A study of Mus musculus with 2 samples.

Results

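The 10 genes described here form 2 groups of stress-response genes, 5 heat-shock chaperones (Hspa1a, Hspa1b, Dnajb1, Hsph1 and Hsp90aa1) and 5 transcription factor genes of the AP-1 stress response (Fos, Fosb, Jun, Junb and Atf3). They were chosen by symbol and not by a threshold on a measured value, but with earlier results of these data known. All 10 were present among the 32285 genes of both count tables, and each was counted in 4 classes of barcodes.

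The counts came from MB49 tumours, grown from a mouse bladder carcinoma line transplanted into C57BL/6J mice aged 12 to 14 weeks and collected at day 14. There was 1 library from tumours of female mice and 1 from tumours of male mice, and how many mice stand behind a library is not stated. Both libraries shared the tumour line, the collagenase digestion, the sort, which the labels describe as one for viable CD4+ T cells, and the 5′ droplet chemistry. With 1 library per sex no test of female against male tumours was possible. Each interval below is an exact 95% interval for counting error alone, and a ratio describes these 2 libraries.

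Heat-shock chaperones are switched on by the transcription factor HSF1, which binds heat-shock elements, inverted repeats of the letters GAA, when unfolded protein accumulates. AP-1 is a pair of proteins from the Fos and Jun families, whose genes are transcribed within minutes of a signal and whose messages decay fast. In T cells AP-1 works downstream of the antigen receptor together with NFAT. Both sets of genes are also known to be induced in cells while fresh tissue is dissociated.

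The promoters of the 4 members with a paired heat-shock element are shown because the HSP70 pair stands apart in the results below. Whether these motifs bear on any level or correlation below was not tested. Each window runs from 250 bases before to 50 bases after the transcription start, from RefSeq on GRCm38.p6, 5′ to 3′ on the gene's strand. Capitals mark GAANNTTC or TTCNNGAA, which lie head to head or tail to tail as adjoining units of a heat-shock element. Hspa1a is at chr17:34972107-34972406, Hspa1b at chr17:34959189-34959488, Hsph1 at chr5:149636287-149636586 and Jun at chr4:95052173-95052472, all on the minus strand.
Hspa1a: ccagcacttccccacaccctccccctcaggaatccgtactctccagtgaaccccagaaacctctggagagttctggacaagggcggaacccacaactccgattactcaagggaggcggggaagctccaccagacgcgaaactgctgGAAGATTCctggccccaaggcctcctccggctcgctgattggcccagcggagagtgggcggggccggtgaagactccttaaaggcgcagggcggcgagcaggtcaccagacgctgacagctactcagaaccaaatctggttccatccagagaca
Hspa1b: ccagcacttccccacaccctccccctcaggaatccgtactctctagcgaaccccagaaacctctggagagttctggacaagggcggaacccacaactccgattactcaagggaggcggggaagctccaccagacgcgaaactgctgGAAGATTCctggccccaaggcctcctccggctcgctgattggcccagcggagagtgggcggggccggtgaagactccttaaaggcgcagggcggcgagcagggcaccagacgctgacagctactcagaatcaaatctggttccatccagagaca
Hsph1: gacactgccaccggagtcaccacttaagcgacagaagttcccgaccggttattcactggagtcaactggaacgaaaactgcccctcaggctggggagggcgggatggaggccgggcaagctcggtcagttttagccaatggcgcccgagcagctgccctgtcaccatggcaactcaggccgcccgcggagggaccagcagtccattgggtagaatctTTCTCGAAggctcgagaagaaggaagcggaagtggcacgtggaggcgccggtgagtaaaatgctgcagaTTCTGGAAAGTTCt
Jun: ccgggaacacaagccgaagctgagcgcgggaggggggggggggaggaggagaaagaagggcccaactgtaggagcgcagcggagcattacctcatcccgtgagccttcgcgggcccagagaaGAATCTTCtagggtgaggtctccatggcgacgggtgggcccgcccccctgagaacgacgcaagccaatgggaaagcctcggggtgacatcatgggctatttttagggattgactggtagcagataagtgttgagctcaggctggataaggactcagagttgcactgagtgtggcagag

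GAAGATTC began 104 bases before the start in both Hspa1a and Hspa1b. Hsph1 had TTCTCGAA 33 bases before the start, and after it TTCTGGAA and GAAAGTTC, which overlap. Jun had GAATCTTC 128 bases before its start. Both motifs are palindromes in form and were read on both strands, and GAANNTTC was in 7.86% and TTCNNGAA in 8.52% of the 32851 RefSeq mouse windows. Dnajb1, Fos, Fosb, Junb and Atf3 had neither motif in their windows, and Hsp90aa1 had no window to search. None of the 9 searched members held TGANTCA, the AP-1 site, or TGACGTCA, the cAMP response element, which were in 7.81% and 1.79% of windows. These matches describe letters only.

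Barcodes were sorted into classes by their own counts after removing those with fewer than 500 genes or more than 10% mitochondrial UMIs. The kept barcodes numbered 3468 of 3658 in the female library and 3519 of 3708 in the male one, which held 55880364 and 50946624 UMIs in all. Treg barcodes (Foxp3 and no Cd8 UMI) numbered 233 in the female library versus 345 in the male one. Cd8 barcodes (at least 2 UMIs of Cd8a and Cd8b1 and no Foxp3) numbered 2245 in the female library versus 1940 in the male one, 64.7% and 55.1% of those kept, although the labels describe a CD4+ sort. Other Cd4 barcodes (a Cd4 UMI, no Foxp3 and no Cd8) numbered 248 in the female library versus 231 in the male one. Keratin-positive barcodes (at least 10 UMIs of Krt8 and Krt18) numbered 38 in the female library versus 27 in the male one, and Epcam and Cdh1, which define epithelium, were at 0 in them. A Cd3 UMI was found in 97.1% to 99.6% of barcodes in the 3 T classes of either library, against 23.7% of the female and 14.8% of the male keratin-positive barcodes. The 712 female and 979 male kept barcodes outside every class were mostly those with both Foxp3 and Cd8 UMIs, 395 and 491 in number, whose median depths were 33157 and 33093 UMIs. The Xist and Ddx3y counts matched the sex on both labels.

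A few barcodes belonged to 2 classes and bear on the results. In the female library 2 Treg barcodes were also keratin-positive, and they carried 11.8% of all female Treg UMIs. One of them held 191 of the 699 Fos UMIs and 165 of the 517 Jun UMIs of female Treg barcodes. No male Treg barcode was keratin-positive. In the Cd8 class 6 female and 3 male barcodes were keratin-positive, with 1.14% and 0.514% of the class UMIs. All 8 female barcodes in 2 classes made up 29.7% of the female keratin-positive UMIs, and the 3 male ones 10.0% of the male. Treg and keratin-positive values are therefore given also without these barcodes where that changed a call or a sign or moved a value by over 1.5 times. The libraries also shared 16 barcode sequences, whose removal moved no member's ratio beyond its counting interval.

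Hspa1a and Hspa1b encode the stress-inducible HSP70, which holds and refolds unfolded proteins, and are 2 single-exon genes on chromosome 17 (chr17:34969190-34972156 and chr17:34956436-34959238, minus strand). Their promoter windows were identical at 296 of 300 bases, 98.7%, and differed at C44T, T47C, T249G and C276T, counted from the 5′ end of the window with the base of Hspa1a first. The first 300 bases of their transcripts were 99% identical, at 297 of 300 positions, so that 5′ reads can be hard to place. Of all 90-base stretches in each transcript, 50.7% of those in Hspa1a and 47.7% of those in Hspa1b are not in the other copy. The split between the copies is therefore uncertain, and their sum is the firmer value.

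In Cd8 barcodes Hspa1a was at 63.8 CPM (UMIs of the gene scaled to 1000000 UMIs of the class) in the female library and 107 CPM in the male one, and Hspa1b at 84.0 and 164 CPM. In Treg barcodes Hspa1a was at 67.4 CPM in the female library and 110 CPM in the male one, and Hspa1b at 85.4 and 180 CPM. In other Cd4 barcodes Hspa1a was at 99.6 CPM in the female library and 303 CPM in the male one, and Hspa1b at 119 and 292 CPM. In each T class the female value of each copy was below the male value. Keratin-positive barcodes went apart on the copies. Hspa1b was at 77.7 CPM in the female library and 106 CPM in the male one, whereas Hspa1a had 0 UMIs in the female library, where 3 counts would be 1.43 CPM and the exact upper limit is 1.76 CPM, and 8 UMIs, or 6.29 CPM, in the male library. The male library had 3 Hspa1a UMIs, or 2.62 CPM, without the doubly classed barcodes.

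As a share of both copies, Hspa1a made up 0% (0% to 2.24%) of 163 UMIs in female and 5.59% (2.45% to 10.7%) of 143 UMIs in male keratin-positive barcodes. In the T classes it made up 43.2% in Cd8, 44.1% in Treg and 45.5% in other Cd4 barcodes of the female library, and 39.5%, 37.8% and 51.0% in the same classes of the male library. Keratin-positive barcodes without a Cd3 UMI had 0 of 111 UMIs from Hspa1a in the female library and 3 of 111 in the male one. With the doubly classed barcodes left out it was 0 of 106 UMIs in the female library and 3 of 111 UMIs in the male one. Whether reads covered the same stretches of both copies in each class was not tested.

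Dnajb1, the HSP40 co-chaperone that hands clients to HSP70 (chr8:83608193-83612653, plus strand), was at 129 CPM in female and 158 CPM in male Cd8 barcodes. It was at 140 CPM in female and 147 CPM in male Treg barcodes, 202 and 219 CPM in other Cd4 barcodes, and 192 and 224 CPM in keratin-positive barcodes. Its range over the 8 groups was narrower than that of the HSP70 pair. Hsph1, an HSP110 that recharges HSP70 by nucleotide exchange (chr5:149614287-149636376, minus strand), was at 70.6 CPM in female and 76.9 CPM in male Cd8 barcodes, and at 96.8 and 138 CPM in keratin-positive barcodes. It was at 56.9 CPM in female and 46.7 CPM in male Treg barcodes, and at 59.3 and 89.3 CPM in other Cd4 barcodes. Hsp90aa1, the inducible cytosolic HSP90 (chr12:110690605-110702728, minus strand), lay within 391 to 491 CPM in all T classes of both libraries. In keratin-positive barcodes it was at 885 CPM in the female library and 951 CPM in the male one, above every T class.

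Fos, the AP-1 subunit that must pair with a Jun protein (chr12:85473890-85477273, plus strand), was at 135 CPM in female and 208 CPM in male Cd8 barcodes. It was at 349 CPM in female and 481 CPM in male Treg barcodes, and without the doubly classed barcodes the female Treg value was 277 CPM. In other Cd4 barcodes it was at 407 CPM in the female library and 602 CPM in the male one. Keratin-positive barcodes had the highest Fos levels, 636 CPM in the female library and 790 CPM in the male one. Fosb, a close relative of Fos (chr7:19302696-19310051, minus strand), ran from 90.4 CPM in female Treg to 278 CPM in female keratin-positive barcodes. In the male library its range was 122 CPM in Treg to 246 CPM in other Cd4 barcodes.

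Jun, which can pair with itself or with a Fos protein (chr4:95049034-95052222, minus strand), was at 164 CPM in female and 275 CPM in male Cd8 barcodes. It was at 156 CPM in female and 263 CPM in male other Cd4 barcodes, and at 848 and 857 CPM in keratin-positive barcodes. In Treg barcodes it was at 258 CPM in the female library and 376 CPM in the male one, but at 150.5 CPM in the female library without the doubly classed barcodes. Junb, a Jun relative known for its role in keeping effector Treg cells (chr8:84974484-84978718, minus strand), had another order of classes. It was at 740 CPM in female and 713 CPM in male keratin-positive barcodes, 1353 and 1598 CPM in Cd8, 2582 and 2793 CPM in Treg, and 3318 and 3700 CPM in other Cd4 barcodes. Those 4 classes stood in this order in both libraries, and neighbouring intervals did not overlap within a library.

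Atf3, a stress-induced partner of Jun that often represses (chr1:191170296-191218039, minus strand), was the sparsest AP-1 member. It was at 20.1 CPM in female and 35.3 CPM in male Cd8 barcodes, 19.97 and 25.8 CPM in Treg, and 37.2 and 115 CPM in other Cd4 barcodes. One barcode held 71 of the 158 Atf3 UMIs, 44.9%, in male other Cd4 barcodes. Keratin-positive barcodes had 3 Atf3 UMIs in the female library versus 6 in the male one, which all came from 2 female barcodes and 1 male barcode. Leaving out the doubly classed barcodes, 1 Atf3 UMI was left in the female library versus 0 in the male one, so that all 6 male UMIs came from a barcode that was also in the Cd8 class.

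**Figure D1:**
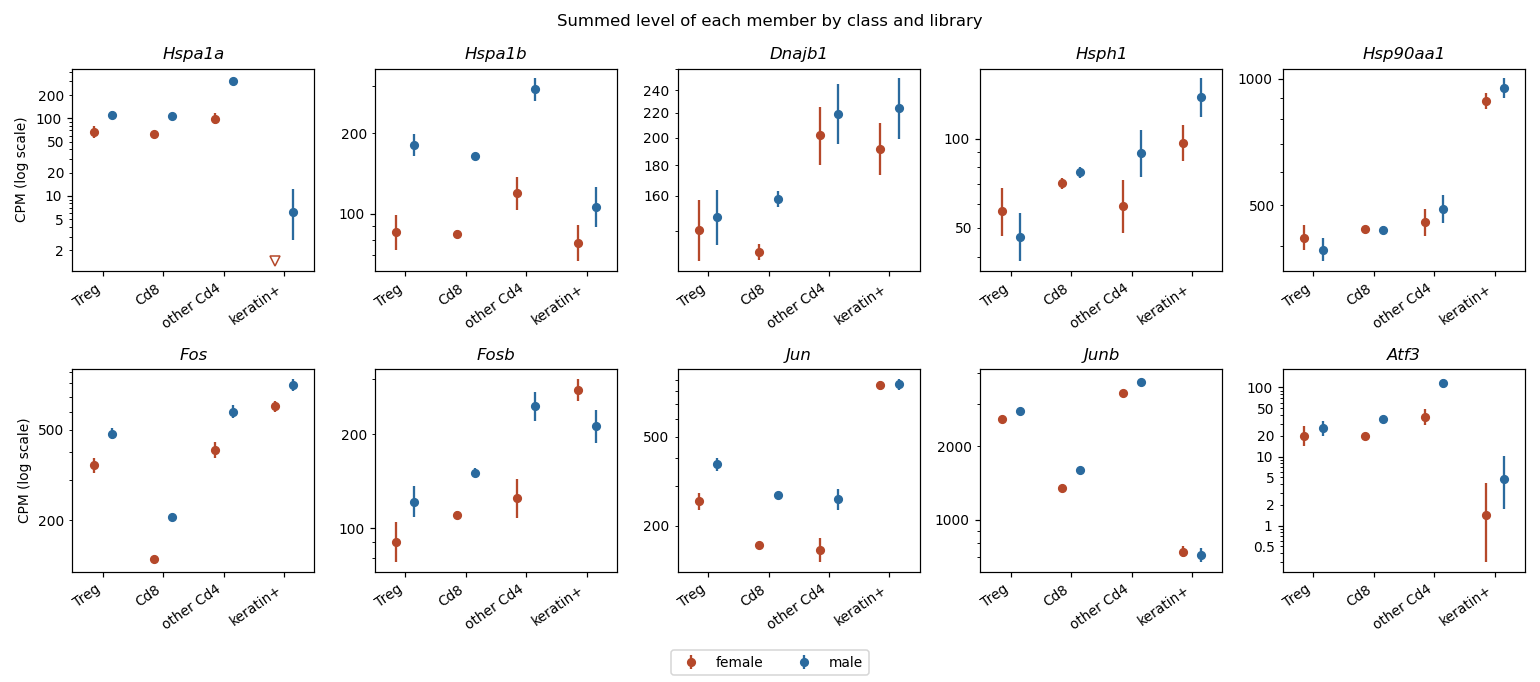
Level of each of the 10 members in CPM (log axis) in the 4 barcode classes, with female values left of male values and 95% counting intervals. The open triangle is Hspa1a in female keratin-positive barcodes, at 0 UMIs and drawn at the level of 3 counts, 1.43 CPM. Junb is lowest in the keratin-positive class and highest in other Cd4 barcodes.

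Between Treg and Cd8 barcodes Fos and Junb had the largest ratios of the 10 members in both libraries, and no chaperone was higher in Treg barcodes past 1.5-fold. Fos was 2.59-fold higher in Treg than in Cd8 barcodes of the female library and 2.32-fold higher in the male library, log2 ratios of 1.37 (1.26 to 1.49) and 1.21 (1.12 to 1.31). Junb was higher in Treg than in Cd8 barcodes by log2 ratios of 0.93 in the female library versus 0.81 in the male one. Jun was higher in Treg barcodes by 0.65 in the female library versus 0.45 in the male one, but by -0.09 in the female library without the doubly classed barcodes. Fosb went the other way, at -0.29 in the female library versus -0.31 in the male one, and Hsph1 at -0.31 and -0.72. Counting ratios of at least 1.5-fold, 3 of 10 members were higher in female and 2 of 10 in male Treg barcodes, against 21.1% and 22.2% of all genes measured. Among members lower in Treg barcodes there were 0 in the female library versus 1 in the male one, against 10.4% and 12% of all genes. Without the doubly classed barcodes Fos was at 1.06 and 2 of 10 members were higher and 0 lower in the female library, against 22.4% and 12.7% of all genes. The members' share was thus near that of all genes.

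Cd8 barcodes stood below other Cd4 barcodes for most members. Fos was lower by log2 ratios of -1.60 (-1.72 to -1.48) in the female library versus -1.54 (-1.64 to -1.43) in the male one, and Junb by -1.29 and -1.21. Jun showed no such gap, with ratios of 0.07 (-0.11 to 0.26) in the female library versus 0.07 (-0.09 to 0.22) in the male one. Atf3 had ratios of -0.89 in the female library versus -1.70 in the male one, Hspa1a of -0.64 and -1.50, and Dnajb1 of -0.64 and -0.47. Past 1.5-fold, 5 of 10 members were lower in female and 6 of 10 in male Cd8 barcodes, against 17.9% and 16.3% of all genes measured. None of the 10 members was higher in Cd8 barcodes of either library, against 13.7% and 12.6% of all genes. Among 31 other immediate-early genes, such as Dusp1, Ier2 and Nr4a1, 24 of 30 measured were lower in female and 20 of 29 in male Cd8 barcodes, with medians of -1.04 and -0.86. Over all genes measured the medians were -0.08 and -0.07.

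Treg barcodes stood below other Cd4 barcodes for 9 of the 10 members in each library. Only Jun was higher in Treg barcodes, by log2 ratios of 0.72 in the female library versus 0.52 in the male one, and the female ratio was -0.05 (-0.31 to 0.20) without the doubly classed barcodes. Hspa1a had ratios of -0.56 in the female library versus -1.47 in the male one, and Atf3 of -0.90 and -2.15. Past 1.5-fold, 1 of 10 members was lower in female and 5 of 10 in male Treg barcodes, against 13% and 11.4% of all genes. Members higher past that fold were 1 in the female library versus 0 in the male one, against 20.2% and 20.1% of all genes. Without the doubly classed barcodes the female count was 2 lower and 0 higher, against 12.1% and 19% of all genes.

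Keratin-positive barcodes set Jun, Fos and Hsp90aa1 apart from Junb, Atf3 and Hspa1a. Over Cd8 barcodes Jun was higher by log2 ratios of 2.37 in the female library versus 1.64 in the male one, Fos by 2.24 and 1.93, and Hsp90aa1 by 1.01 and 1.12. Junb was lower at -0.87 in the female library versus -1.16 in the male one, and Atf3, with 3 and 6 UMIs, at -3.81 (-6.09 to -2.26) and -2.90 (-4.35 to -1.77). With its 0 UMIs set to 3 counts, Hspa1a was 44.6-fold lower in female keratin-positive than in female Cd8 barcodes. In the male library it was 17.01-fold lower, a log2 ratio of -4.09 (-5.30 to -3.11) on 8 UMIs. When the doubly classed barcodes were left out the male log2 ratio was -5.36 (-7.63 to -3.81) on 3 UMIs. The female one was then -4.99 with 0 UMIs set to 3 counts, and its exact upper limit was -4.69. Atf3 then had 1 UMI in the female library, at -4.90 (-10.20 to -2.41). In the male one its 0 UMIs, set to 3 counts, gave -3.75, with an exact upper limit of -3.45. Junb was at -1.13 in the female library without the doubly classed barcodes. Past 1.5-fold, 4 of 10 members were higher in each library, against 26.8% of all genes in the female library versus 26.7% in the male one. Members lower past that fold were 3 in the female library versus 4 in the male one, against 37% and 39.3% of all genes. These barcodes were also deeper, with medians of 53141.5 UMIs in the female library and 43236 UMIs in the male one, against 10507 and 8859.5 UMIs in Cd8 barcodes. The part of depth in these ratios was not tested.

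The HSP70 pair was found in few barcodes. A UMI of Hspa1a was found in 193 of 2245 female Cd8 barcodes, 8.60% (7.47% to 9.83%), and in 265 of 1940 male ones, 13.7% (12.2% to 15.3%). Those barcodes held 11.3 Hspa1a UMIs each on average in the female library versus 9.99 in the male one. The 10% of Cd8 barcodes with the highest counts held 97.0% of the Hspa1a UMIs of the male library. In the female library they held all, which follows from the 8.60% of barcodes with a UMI. In Treg barcodes 3.86% of female and 6.67% of male barcodes had an Hspa1a UMI, and in other Cd4 barcodes 8.87% and 12.99%. Both copies were detected together in 130 female and 196 male Cd8 barcodes. Keratin-positive barcodes, which were deeper, had an Hspa1a UMI in 0 of 38 in the female library, with an upper limit of 9.25%, and in 2 of 27 in the male library, 7.41%. A UMI of either copy was found in 21 of the 38 female ones, 55.3%, and in 20 of the 27 male ones, 74.1%. No class here is known to lack HSP70, so no share for free RNA could be set.

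Single barcodes weighed heavily on the pair in the small classes. One barcode held 42.2% of all Hspa1a UMIs in female Treg barcodes, and 43.3% of the Hspa1b UMIs came from 1 barcode too. In male Treg barcodes the top barcode held 11.9% of the Hspa1a and 12.2% of the Hspa1b UMIs. At the other extreme Junb was found in 95.7% to 100% of barcodes in every class and library, and Hsp90aa1 in 74.2% to 89.1% of barcodes in the T classes.

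To compare spread at one depth, each barcode with at least 3738 UMIs was thinned to that number, and shallower ones were left out. This kept 2110 of 2245 female and 1734 of 1940 male Cd8 barcodes, and 205 of 233 and 290 of 345 Treg barcodes. Of other Cd4 barcodes it kept 193 of 248 in the female library and 181 of 231 in the male one. The variance beyond Poisson counting was expressed as a coefficient of variation. In Cd8 barcodes this coefficient was 6.78 in the female library versus 5.80 in the male one for Hspa1a, and 5.73 and 4.64 for Hspa1b. Hsph1 reached 1.92 in the female library versus 1.82 in the male one, Dnajb1 0.96 and 1.47, and Hsp90aa1 0.94 and 1.05. Among AP-1 members Atf3 spread most, at 4.10 in the female library versus 4.77 in the male one. Fos had 2.53 in the female library versus 2.07 in the male one, Jun 2.12 and 1.77, Fosb 1.45 and 1.80, and Junb 0.91 and 0.84. Among the 10 members in Cd8 barcodes Hspa1a was the most and Junb the least spread in both libraries. The order differed in other Cd4 barcodes, where Atf3 reached 5.66 in the female library versus 7.36 in the male library, and Hspa1a 5.04 and 5.16. There the top barcode held 28.8% of the female and 44.9% of the male Atf3 UMIs. For Hspa1a it held 12.0% and 23.2%.

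**Figure D2:**
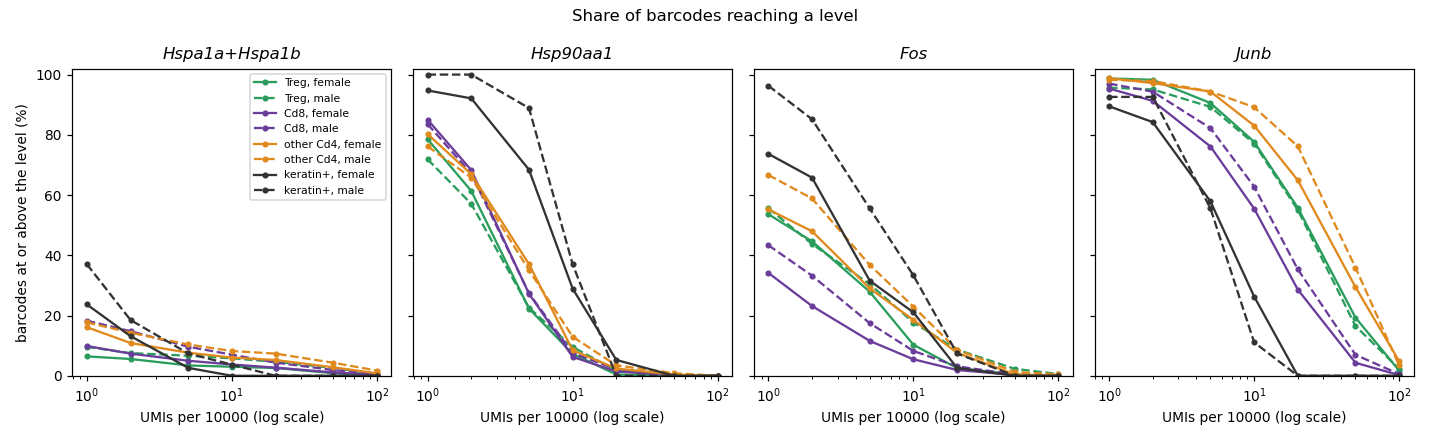
Share of barcodes at or above a given level (UMIs per 10000) for the HSP70 pair, Hsp90aa1, Fos and Junb, by class, with female lines solid and male lines dashed. At 1 UMI per 10000 the HSP70 curves of the T classes start at 6.44% to 18.3% of barcodes, and they run out to high levels. The Junb curves start at 89.5% of barcodes or more.

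Members of one group went together from barcode to barcode, and the groups were only loosely tied. Pearson's r was taken over the barcodes of 1 class and library on log counts per 10000 UMIs, so its points share the library and differ in depth, and it is given without a p. In Cd8 barcodes the 10 chaperone pairs averaged r = 0.32 in the female (n = 2245) and 0.38 in the male library (n = 1940). The 10 AP-1 pairs averaged 0.26 in the female library versus 0.28 in the male one, and the 25 pairs across the groups 0.12 and 0.14. The same order of the 3 averages held in the Treg class, with chaperones at 0.34 in the female library versus 0.35 in the male one, AP-1 at 0.25 and 0.25, and cross pairs at 0.03 and 0.10. It held in other Cd4 barcodes too, with chaperones at 0.32 in the female library versus 0.42 in the male one, AP-1 at 0.21 and 0.22, and cross pairs at 0.10 and 0.13.

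Hspa1a and Hspa1b were the tightest pair in Cd8 barcodes, at r = 0.82 in the female library versus 0.74 in the male one, and still at 0.77 and 0.70 after thinning. The part of reads shared between near-identical copies in that value was not tested. Hspa1b with Hsph1 reached 0.38 in the female library versus 0.47 in the male one, and Hspa1b with Hsp90aa1 0.31 and 0.38. Dnajb1 was less tied to the rest, for example at 0.13 in the female library versus 0.26 in the male one with Hsph1. Among AP-1 genes Fos with Jun had 0.45 in the female library versus 0.41 in the male one, and Fos with Junb 0.36 and 0.36. Atf3 was nearest to Fosb, at 0.24 in the female library versus 0.34 in the male one. Across the groups Jun had r = 0.27 to Hspa1b in either library, while Fosb was at 0.03 in the female library versus 0.05 in the male one to the same gene.

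In keratin-positive barcodes, 38 female and 27 male, the order of the averages differed between the libraries. In the female library chaperone pairs averaged r = 0.349, AP-1 pairs 0.346 and cross pairs 0.02, in the order of the T classes. The male averages were 0.17 for chaperones, 0.42 for AP-1 and 0.14 for cross pairs. Fos with Jun stood at r = 0.82 in the female library versus 0.82 in the male one, and Fos with Fosb at 0.80 and 0.74. Thinning lowered Fos with Jun to 0.57 in the female library versus 0.28 in the male one. Hsph1 with Junb was negative, at -0.27 in the female library versus -0.49 in the male one. Hspa1a has no female value, since all female counts were 0, and its male r of 0.87 with Atf3 rests on 2 barcodes with Hspa1a and on 1 barcode with Atf3 that was also in the Cd8 class.

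**Figure D3:**
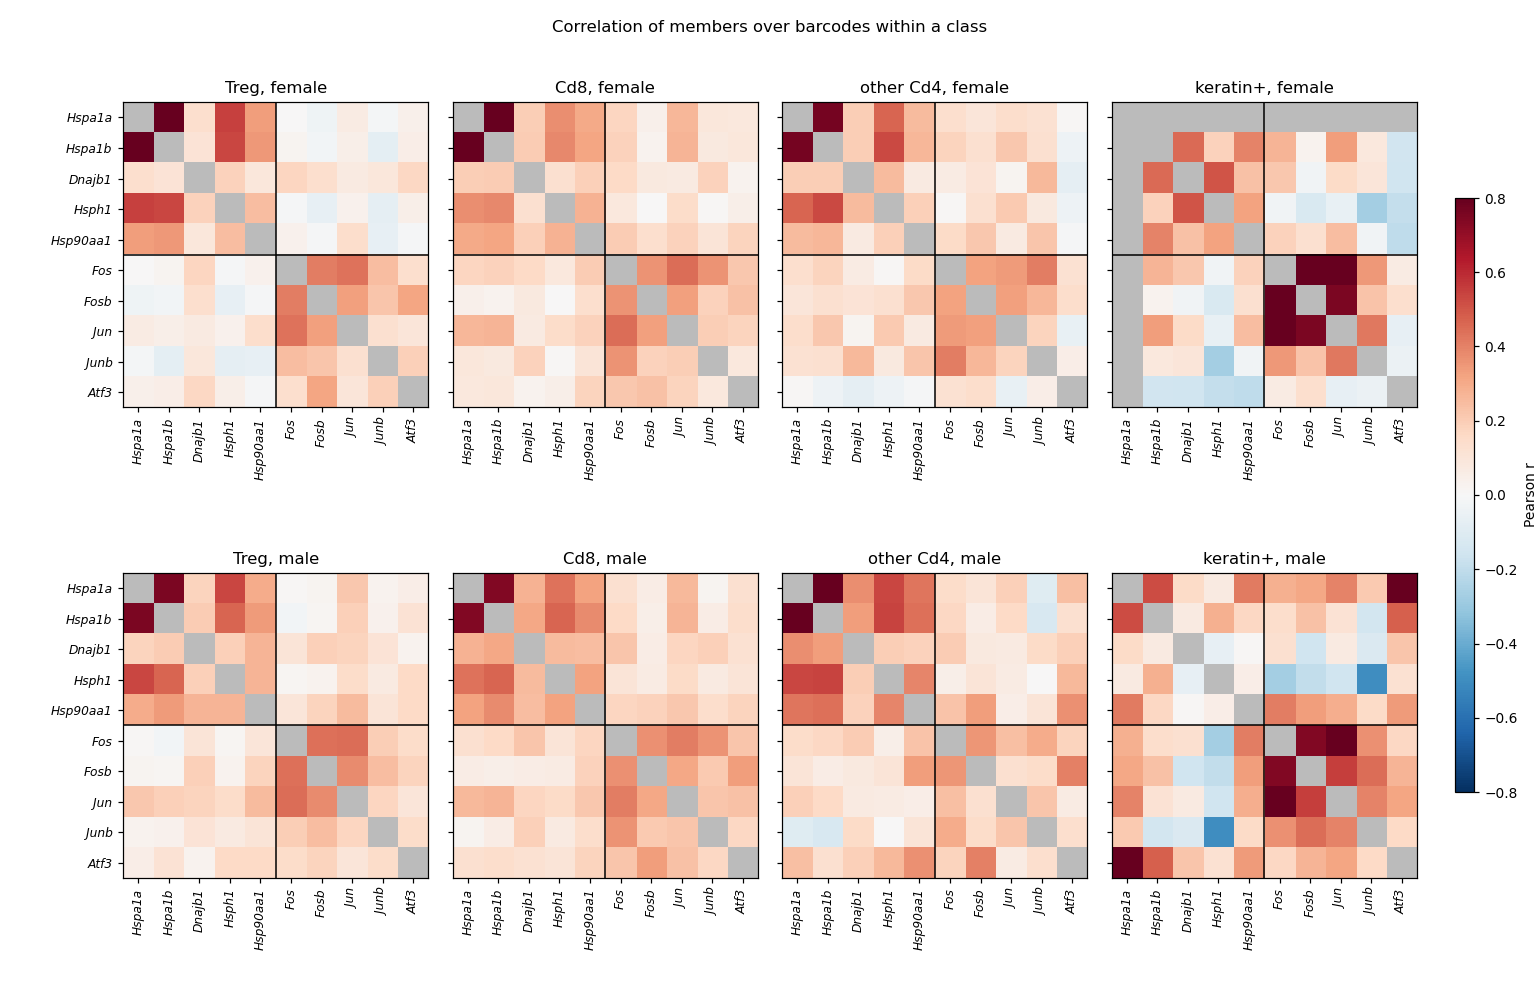
Pearson's r for each pair of members over the barcodes of a class, with the female library in the top row and the male library in the bottom row, and grey where there is no value. The chaperone block and the AP-1 block are warmer than the area between them in the 3 T classes, where the 25 cross pairs average 0.03 to 0.14.

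Over the T classes a member's r with log total UMIs lay between -0.24 and 0.17. In Cd8 barcodes r with log total UMIs was -0.20 in the female library versus -0.19 in the male one for Fos, and 0.16 and 0.13 for Hsp90aa1. For Hspa1b it was -0.02 in either library. Fosb went with the mitochondrial share at 0.13 in the female library versus 0.22 in the male one. In female keratin-positive barcodes Hsp90aa1 followed depth at 0.58, while the male value was -0.12. Their part in the pair values was not tested beyond the thinned values given.

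The link between the groups was also read from quartiles. Thinned barcodes were ranked by their summed chaperone counts and cut into quartiles, and AP-1 counts were then summed per quartile. Either sum leans on 1 gene. In Cd8 barcodes before thinning Junb held 46130 of 60766 female and 39557 of 56094 male AP-1 UMIs. Hsp90aa1 held 14976 of 26827 female and 10817 of 23333 male chaperone UMIs. In female Cd8 barcodes the AP-1 sum was 1789 CPM (1730 to 1849) in the lowest and 2731 CPM (2659 to 2805) in the highest chaperone quartile. In male Cd8 barcodes it was 2096 CPM (2027 to 2168) in the lowest and 3590 CPM (3498 to 3683) in the highest quartile. Jun was at 151 CPM in the lowest and 304 CPM in the highest quartile of the female library, and at 190.5 and 579.5 CPM in those of the male library. Atf3 was at 11.2 CPM in the lowest and 43.2 CPM in the highest quartile of the female library, and at 22.2 and 97.6 CPM in those of the male library.

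Other Cd4 barcodes showed the same, with 2784 CPM in the lowest and 5663 CPM in the highest chaperone quartile of the female library, and 3740 and 7289 CPM in those of the male library. In male Treg barcodes the AP-1 sum was 3815 CPM in the lowest and 4908 CPM in the highest quartile. In female Treg barcodes it was 3447 CPM (3191 to 3718) in the lowest and 3478 CPM (3218 to 3753) in the highest quartile, and the difference between the libraries in this respect was not tested. Keratin-positive quartiles held only 6 to 10 barcodes at their ends and overlapped, with 2220 CPM (1769 to 2753) in the lowest and 2408 CPM (1912 to 2993) in the highest quartile of the female library.

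The reverse ranking gave the chaperone sum by AP-1 quartile. In Cd8 barcodes it was 566.5 CPM in the lowest and 1192 CPM in the highest AP-1 quartile of the female library, and 691 and 1460 CPM in those of the male library. The HSP70 pair alone was at 54.2 CPM in the lowest and 374 CPM in the highest quartile of the female library, and at 184 and 532 CPM in those of the male library. Hsp90aa1 moved less, at 338 CPM in the lowest and 517 CPM in the highest quartile of the female library, and at 332 and 549 CPM in those of the male library. Before thinning, barcodes of the highest AP-1 quartile were shallower, with a median of 7916 UMIs against 12496.5 UMIs in the lowest quartile of the female library.

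**Figure D4:**
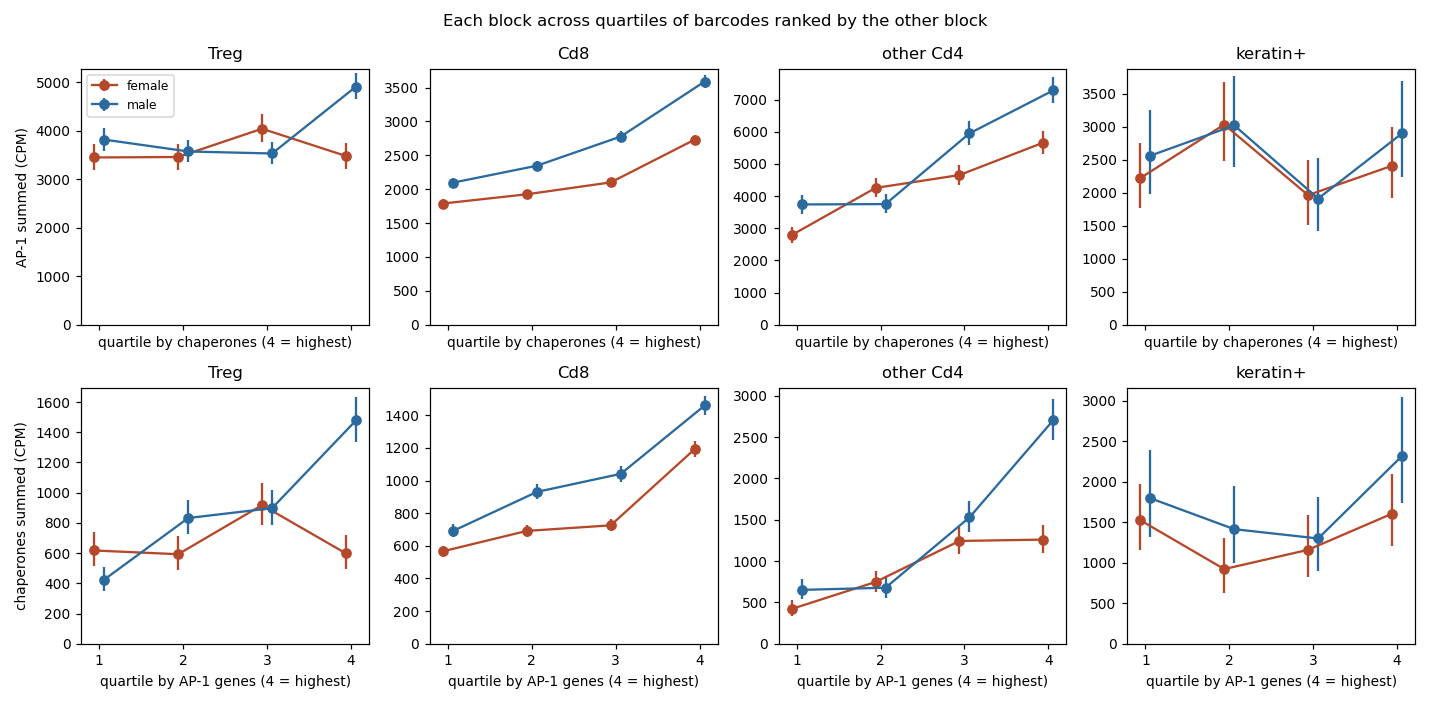
Summed counts in CPM, with 95% counting intervals, of AP-1 genes by quartile of the chaperone sum (top row) and of chaperones by quartile of the AP-1 sum (bottom row), for thinned barcodes of each class and library. In Cd8 barcodes the AP-1 sum is 2731 CPM in the female library and 3590 CPM in the male one in the highest chaperone quartile, above 1789 and 2096 CPM in the lowest.

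Cd8 barcodes with at least 3 HSP70 UMIs after thinning had more Hsph1, Dnajb1 and Hsp90aa1 as well. There were 91 of these in the female library versus 149 in the male one, against 1943 and 1450 barcodes with none. Hsph1 was at 364.5 CPM in the female library and 350.1 CPM in the male one with at least 3 HSP70 UMIs, against 52.5 and 50.7 CPM with none. Dnajb1 was at 414.5 CPM in the female library and 566 CPM in the male one with at least 3 HSP70 UMIs, against 138 and 147 CPM with none. Hsp90aa1 was at 1097 CPM in either library with at least 3, against 356 and 353 CPM with none. Jun was at 644 CPM in the female library and 785 CPM in the male one with at least 3, against 166 and 258 CPM with none. Atf3 was at 55.9 CPM in the female library and 120 CPM in the male one with at least 3, against 22.0 and 36.7 CPM with none. Fos was at 435 CPM in the female library and 461 CPM in the male one, against 177 and 258 CPM with none. Fosb was at 147 CPM in the female library and 233 CPM in the male one, against 120 and 169 CPM with none. Junb was nearly flat in the male library, at 1878 CPM with at least 3 and 1819 CPM with none, and at 2178 and 1551 CPM in the female library. In female Treg barcodes only 6 had at least 3 HSP70 UMIs. Hsph1 was at 535 CPM in them against 28.0 CPM with none, but Dnajb1 at 178 CPM (48.6 to 457) against 154 CPM.

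Outside the members, the genes whose counts were most like each sum were named from those with a UMI in at least 10% of barcodes in both libraries. In Cd8 barcodes 7243 genes were ranked by r averaged over the 2 libraries. Most like the chaperone sum were Hsp90ab1, the constitutive HSP90, at 0.31, Hspa8, the constitutive HSP70 relative, at 0.30, Dnaja1 at 0.30, Hspe1 at 0.27 and Klf2 at 0.23. Most like the AP-1 sum were Dusp1 at 0.50, Ier2 at 0.50, Zfp36 at 0.49, Nr4a1 at 0.42 and Klf2 at 0.41. The median r over all genes ranked was -0.002 for chaperones and -0.033 for AP-1. In Treg barcodes, with 5925 genes ranked, Hsp90ab1 at 0.33 and Hspe1 at 0.31 led for chaperones, and Nr4a1 at 0.49 and Jund at 0.47 for AP-1. In other Cd4 barcodes Hsp90ab1 at 0.30 and Klf6 at 0.25 led for chaperones, and Zfp36 at 0.44 and Ier2 at 0.42 for AP-1. For the keratin-positive class 9399 genes were ranked over only 38 female and 27 male barcodes. Emp1 at 0.50 and Prkca at 0.48 led there for chaperones, and Jund at 0.69 and Dusp1 at 0.67 for AP-1. Median r was 0.053 for chaperones and 0.066 for AP-1. The chaperone sum itself had r = 0.58 with log total UMIs among female keratin-positive barcodes, against -0.25 among male ones. Whether these top values exceed what unrelated genes or depth would give was not tested.

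Taken one by one in Cd8 barcodes, members of a group had different nearest genes. Hspe1, the mitochondrial HSP10, was first for Hspa1a at 0.20, Hspa1b at 0.23 and Hsph1 at 0.23, Dnaja1 for Dnajb1 at 0.26, and Hsp90ab1 for Hsp90aa1 at 0.35. Zfp36, which promotes decay of messages, was first for Fos at 0.50, Ier2 for Junb at 0.48, Klf6 for Fosb at 0.39, Klf2 for Jun at 0.35, and Rgcc for Atf3 at 0.28.

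Between the sexes, members were lower in the female than in the male library of each T class wherever the ratio passed 1.5-fold. In Cd8 barcodes Hspa1b had a log2 female over male ratio of -0.96 (-1.03 to -0.89), Hspa1a -0.75 (-0.83 to -0.66), Atf3 -0.81 (-0.96 to -0.67), Jun -0.74 (-0.79 to -0.69) and Fos -0.62 (-0.68 to -0.57). These 5 of 10 members were past 1.5-fold, against 1.37% of the 7667 genes measured, and 0 were higher, against 0.574%. The remaining ratios were -0.45 for Fosb, -0.29 for Dnajb1, -0.24 for Junb, -0.12 for Hsph1 and 0.01 (-0.03 to 0.04) for Hsp90aa1. The median over all genes measured was 0.02. Without barcodes holding a UMI of 8 myeloid and fibroblast genes the Atf3 ratio was -0.49 and the Fos ratio -0.55, both inside 1.5-fold. With equal weight for all barcodes Fos was at -0.56, inside 1.5-fold, and Fosb at -0.60, past it.

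In other Cd4 barcodes 6 of 10 members were lower in the female library, against 7.7% of all genes measured, and 0 were higher, against 8.05%. Hspa1a had a ratio of -1.61 (-1.88 to -1.34), Atf3 -1.62 (-2.08 to -1.18), Hspa1b -1.29 (-1.55 to -1.04), Fosb -0.98 (-1.24 to -0.72), Jun -0.75 (-0.99 to -0.51) and Hsph1 -0.59 (-0.99 to -0.19). Without the top barcode of each member the Atf3 ratio was -1.25 and the Hspa1a ratio -1.41. Weighting all barcodes equally brought Hspa1a to -0.92, Hspa1b to -0.79 and Jun to -0.56, the last inside 1.5-fold. Jun was also inside it after thinning, at -0.52. Hsph1 was inside it under 5 of 11 alternatives, at -0.31 with equal weight and -0.38 after thinning. Fos, at -0.56 with all barcodes, was past it at -0.60 without myeloid or fibroblast UMIs and at -0.59 with TMM scaling. The share of other Cd4 barcodes with an Hspa1a UMI, 8.87% (5.64% to 13.1%) in the female library versus 12.99% (8.94% to 18.0%) in the male one, had overlapping intervals. The summed myeloid list was at 259 CPM with 7 of 11 genes detected in the female library, where Csf1r, C1qa, C1qb and C1qc were at 0, and at 23.2 CPM with 9 of 11 detected in the male library, where Lyz2 and Csf1r were at 0. The summed neutrophil list had 0 UMIs in the female library. In the male one it had 224 UMIs, or 163 CPM, in 0.433% of barcodes. There 3 of 5 neutrophil genes were detected, and Csf3r and Cxcr2 were at 0. The part of either list in these ratios was not tested.

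In Treg barcodes 2 of 10 members were lower past 1.5-fold, against 6.37% of all genes measured, and 0 were higher, against 7.3%. They were Hspa1b at -1.08 (-1.34 to -0.82) and Hspa1a at -0.70 (-1.01 to -0.40). Without the doubly classed barcodes 4 of 10 were lower, against 5.69% of all genes, and 0 higher, against 4.59%. Jun then had a ratio of -1.32 (-1.52 to -1.12) in place of -0.54, Fos -0.80 (-0.95 to -0.64) in place of -0.46, and Fosb -0.68 in place of -0.43, while Hspa1a was at -0.52, inside 1.5-fold. With stricter classes Hspa1a was at -0.53, Fos at -0.61 and Jun at -1.08. Without the top barcode of each member Hspa1a was at -1.31 and Hspa1b at -1.70. Junb was at -0.11 with all barcodes and at -0.03 (-0.08 to 0.03) without the doubly classed ones. The summed myeloid list of 11 genes was at 277 CPM with all 11 detected in female Treg barcodes and at 72.8 CPM with 8 detected in male ones, where C1qa, C1qb and C1qc were at 0, and its part in these ratios was not tested. The summed keratin-positive epithelial list was at 1284 CPM with 4 of 8 genes detected in female Treg barcodes, where Krt19, Krt7, Cdh1 and Cldn4 were at 0, and at 229 CPM with 5 of 8 detected in male ones, where Krt19, Krt7 and Cldn4 were at 0.

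Keratin-positive barcodes had no member past 1.5-fold among the 8 measured, against 5.88% of all genes lower and 10.7% higher in the female library. Hspa1a and Atf3 were too sparse there to be measured. Fosb was higher in the female library at 0.39 (0.18 to 0.60), while Hsph1 was at -0.52 and Hspa1b at -0.45. Jun at -0.02 and Junb at 0.05 did not part from 0. Without the doubly classed barcodes Fosb was at 0.61 and Hsph1 at -0.92. Thus 1 member was higher, against 13.2% of all genes, and 1 lower, against 6.37%. Jun was then at 0.09 (-0.03 to 0.21) and Junb at -0.21 (-0.35 to -0.07). Fosb was also past 1.5-fold after thinning, at 0.79, and Hspa1b with equal weight, at -0.82.

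**Figure D5:**
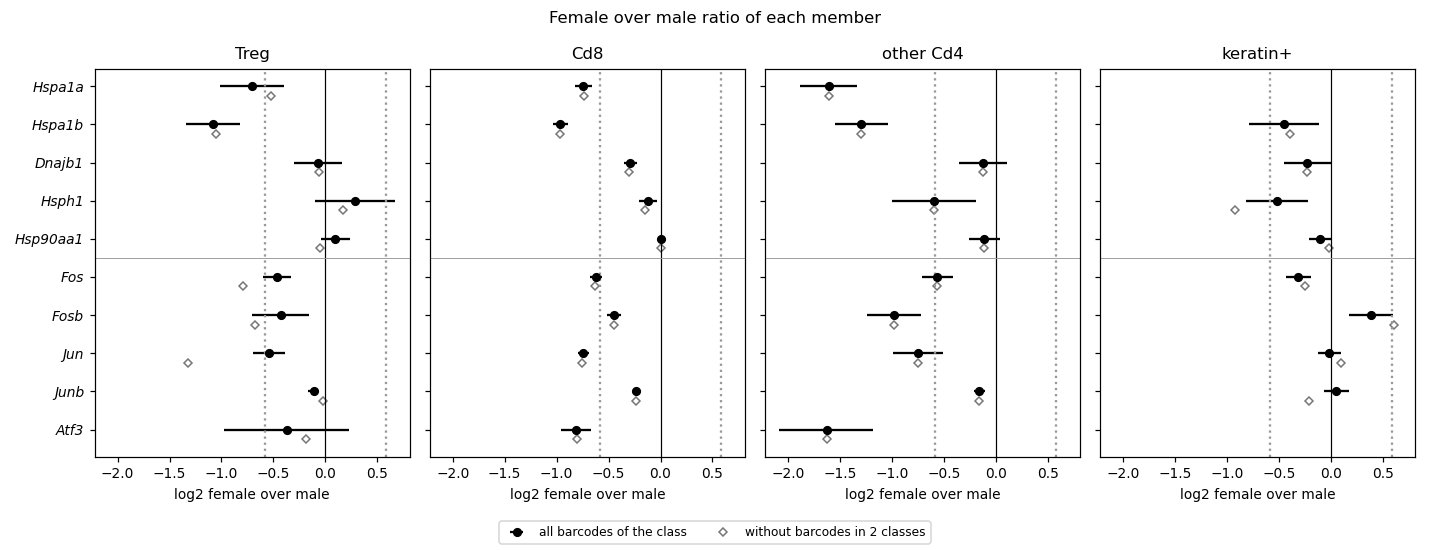
Log2 female over male ratio of each measured member by class, with 95% counting intervals. Filled points use all barcodes, open diamonds leave out barcodes in 2 classes, dotted lines mark 1.5-fold, and in the T classes points past a dotted line lie on the side lower in the female library.

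The other genes of the 2 pathways did not all go with the members. Of 24 further chaperone, co-chaperone and ubiquitin genes of the heat-shock response, 0 of 21 measured passed 1.5-fold between the libraries in Cd8 barcodes, against 0.574% of all genes higher and 1.37% lower, with a median of 0.06. In other Cd4 barcodes 1 of 21 was higher in the female library (Fkbp4, 0.60), against 8.05% of all genes, and in keratin-positive barcodes 1 of 22, against 10.7%. In Treg barcodes 4 of 21 were higher in the female library with a median of 0.32, against 7.3% of all genes. Only 1 of 20 was higher without the doubly classed barcodes, against 4.59%, with a median of 0.08. Hspd1, the mitochondrial HSP60, was at 0.83 with all Treg barcodes and at 0.20 without those barcodes.

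Of 31 other immediate-early genes, 6 of 28 measured were lower and 0 higher in the female library in Cd8 barcodes, against 1.37% and 0.574% of all genes, with a median of -0.38 beside 0.02 over all genes. Klf2, which keeps T cells quiescent and recirculating, was at 184 CPM in female and 470 CPM in male Cd8 barcodes, a log2 ratio of -1.35 (-1.39 to -1.31). The small GTPase gene Rhob was at -0.87, the zinc-finger factor gene Egr1 at -0.65, and Zfp36l1, whose product binds messages, at -0.62. In Treg barcodes 8 of 29 were lower and 1 higher, against 6.37% and 7.3% of all genes, with a median of -0.30. Without the doubly classed barcodes 10 were lower and 0 higher, against 5.69% and 4.59%, and leaving them out took Ier3 to -1.18 in place of 2.51. Klf2 was at -1.10 in Treg barcodes, or -0.94 without those barcodes, and Nr4a1 at -0.84, or -0.66. In other Cd4 barcodes 4 of 30 were lower, among them Rhob at -1.45 and Klf2 at -0.91, and 2 higher, against 7.7% and 8.05% of all genes. The median there was -0.08, beside 0.04 over all genes. In keratin-positive barcodes 3 of 27 were lower and 5 higher, against 5.88% and 10.7% of all genes, with a median of 0.05.

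The remaining lists had few genes past 1.5-fold. The shares over all genes, higher and then lower in the female library, were 7.3% and 6.37% in Treg, 0.574% and 1.37% in Cd8, 8.05% and 7.7% in other Cd4, and 10.7% and 5.88% in keratin-positive barcodes. Of 16 further AP-1 and related factors, 0 of 12 measured passed 1.5-fold in Cd8 and 0 of 12 in other Cd4 barcodes. In Treg barcodes 3 of 13 were higher in the female library, or 1 of 12 without the doubly classed barcodes, against 4.59% of all genes, and Fosl1 was at 4.48 with them and at 0.47 without them. Of 17 chaperones of the endoplasmic reticulum, 0 of 17 passed in Cd8 and other Cd4 barcodes, and 2 were higher and 1 lower in Treg barcodes. None of the 8 chaperonin subunits of the TRiC complex passed in any class. Among 6 stress factors, such as Hsf1 and Xbp1, 5 were measured and 0 passed in Cd8 and Treg barcodes, while in other Cd4 barcodes Atf1 was at 0.63 (0.19 to 1.08) and Hsf2, with few UMIs, at -0.65 (-1.92 to 0.57). Of 13 kinases and Elk factors upstream of Fos, 2 of 11 were higher in other Cd4 barcodes, namely Map2k3 at 0.77 (0.53 to 1.02) and Mapk8 at 0.85 (-0.15 to 1.93), and 0 passed in the other classes. In keratin-positive barcodes 3 of 17 chaperones of the endoplasmic reticulum and 1 of 5 stress factors were higher, and 1 of 11 further AP-1 factors was lower.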

How the data were processed

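The authors deposited 1 table of raw UMI counts for each library, genes by barcodes in whole numbers, made by Cell Ranger 7.0.1 according to the file headers. The submitters' processing notes also name GRCm38 and Seurat 5. The 5′ chemistry and the sort are per the labels' protocols.

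The counts were analysed in Python 3.11.15 with numpy 2.4.6, scipy 1.17.1 and pandas 2.3.3, and edgeR 4.0.16 gave the alternative TMM scaling. Members and the 7 lists of other genes were chosen with earlier results of these data known. Barcodes under 500 genes or over 10% mitochondrial UMIs were dropped, and no doublet caller was run. Counts were summed per class and library and scaled to CPM. Genes under 10 CPM in both groups, or under 20 UMIs over both, were left out, and 1.5-fold was the limit for a call. Intervals are exact and cover counting error only, since UMIs of 1 library share their cells. The step that makes ratios was tested on simulated Poisson counts, which lack the spread between barcodes seen in these data. That test therefore covers counting error only. Beyond the members, the genes named were up to 4 per list with at least 50 UMIs and the largest ratio between libraries, and those with the highest mean r to a sum or a member; Mapk8, Hsf2 and the genes named as examples of a list were picked after their values were seen. Gene positions are from GENCODE M21 on GRCm38, and promoters from RefSeq.

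Median depth was 8915.5 UMIs per barcode in the female library versus 7494 in the male one. Alternatives changed the filter, class rule, depth, weights and scaling.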

Additional observations from a re-analysis of the deposited data

Results flagged for a closer look

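Fosb stood out because its ratio had the opposite sign in 1 class. In keratin-positive barcodes its log2 female over male ratio was 0.39 (0.18 to 0.60), from 278 CPM in the female library and 212 CPM in the male one. In Treg, Cd8 and other Cd4 barcodes the ratio was negative, at -0.43, -0.45 and -0.98. The difference between classes was not tested, since there is 1 library per sex. The keratin-positive ratio lay between 0.25 and 0.79 over 11 alternatives.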

How the results depend on the processing

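No paired analysis was possible because there is 1 library per sex, and for the same reason no replicate could be left out. Among summary values recomputed, 277 stayed within the counting interval of the value reported, within 0.1 for a mean r or within 1.5 times for a count, while 39 moved further; of the ratios of single members 343 stayed within their intervals, 72 moved further and 3 changed sign. Junb in Treg barcodes changed sign, with -0.11 becoming 0.039 without the deepest 10% of barcodes, 0.0013 after thinning and 0.043 with equal weight per barcode. The median chaperone ratio female over male in Treg barcodes, -0.07, was -0.54 without the deepest 10% and -0.34 after thinning, and the AP-1 median there, -0.43, was -0.72 with equal weight. The AP-1 median was -0.49 without myeloid or fibroblast UMIs in Cd8 barcodes (-0.62), and in keratin-positive barcodes (-0.02) it was -0.25 without the deepest 10% and -0.21 with equal weight. Averaged over both libraries, the chaperone median of Treg over other Cd4 (-0.59) was -0.91 with equal weight, and that of Cd8 over other Cd4 (-0.49) was -0.18 after thinning. The AP-1 median of Treg over other Cd4 (-0.38) was -0.62 with stricter classes, -0.50 without the deepest 10%, -0.48 without barcodes in 2 classes, -0.48 with equal weight and -0.46 with TMM scaling. The chaperone median of Treg over Cd8 (-0.04) was -0.405 without the deepest 10%, -0.27 without myeloid or fibroblast UMIs, -0.42 after thinning, -0.35 with equal weight and -0.32 without each member's top barcode. The AP-1 median of Treg over Cd8 (0.55) was 0.15 with stricter classes, 0.24 without the deepest 10%, 0.32 without barcodes in 2 classes, 0.085 after thinning, 0.30 with equal weight, 0.33 with TMM scaling and 0.29 without each member's top barcode. Mean r within chaperones was 0.46 on Pearson residuals in Treg (0.34), 0.26 by Spearman's rho and 0.49 on residuals in other Cd4 (0.37), and 0.15 without barcodes in 2 classes in keratin-positive barcodes (0.26). Mean r within AP-1 in keratin-positive barcodes (0.39) was 0.57 with stricter classes and 0.21 after thinning. With every gene that had a UMI in both libraries, genes past 1.5-fold numbered 1786 higher and 1748 lower in Treg (593 and 518 with the low-count limit), 1176 and 2244 in Cd8 (44 and 105), 1683 and 1619 in other Cd4 (638 and 610), and 1951 and 1666 in keratin-positive barcodes (835 and 461). The alternatives without barcodes in 2 classes, without shared barcode sequences and without each member's top barcode were chosen after seeing the data. The cause of these shifts was not tested. The limits are 1 library per sex, sparse counts in the smaller classes and near-identical Hspa1 copies.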

Other observations

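Barcodes with both Foxp3 and Cd8 UMIs belonged to none of the T classes. There were 396 in the female library with a median of 33232 UMIs, 1 of them keratin-positive, and 491 in the male library with a median of 33093 UMIs, deeper than the T classes. Hspa1a had 1002 and Hspa1b 1342 UMIs in those of the female library, and 1582 and 1958 UMIs in those of the male library. Hspa1a made up 42.7% (40.7% to 44.8%) of the pair in the female library versus 44.7% (43.0% to 46.3%) in the male one, against 37.8% to 51.0% over the T classes of both libraries. Both copies were detected together in 66 of these barcodes in the female library versus 125 in the male one.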
